A study of Mus musculus with 30 samples.

Results

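The genes described here are 9 genes of insulin and insulin-like growth factor (IGF) signalling in endothelial cells of the mouse brain. They are the receptors Insr, Igf1r and Igf2r, the receptor substrates Irs1 and Irs2, the secreted binding proteins Igfbp3 and Igfbp7, and the transcription factors Foxo1 and Foxo3. They were chosen by name, with earlier results of these data known, and matched to the count tables through their gene identifiers. The tables count 48795 genes, and all 9 were found in all 30 libraries and had enough counts to be tested. The libraries were made from amplified full-length cDNA of primary endothelial cells, taken from wild-type mice that had no treatment. There were 5 ages (2, 6, 12, 18 and 24 months) with 6 libraries each, 3 from males and 3 from females. The labels do not say whether a library holds the cells of 1 mouse or of several, so the p-values below measure the spread between these libraries. Some libraries were read as paired ends and others as single ends on a different instrument, and which ones is not stated, so that an instrument effect cannot be told apart from age or sex.

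Insulin and the IGFs bind receptor tyrosine kinases of a common family, which phosphorylate Irs proteins and so recruit PI3-kinase and activate Akt. Akt phosphorylates FoxO transcription factors, which then leave the nucleus, and when insulin signalling is low FoxO factors enter it and act on genes that include Insr and Irs2 themselves. In the brain, endothelial cells are the first to meet circulating insulin and IGFs, and their receptors have been linked both to signalling and to the passage of hormone across the vessel wall. IGF-binding proteins hold IGFs outside the cell and alter how much reaches the receptors.

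Stretches of the Irs1 and Irs2 promoters are shown here because they are the 2 promoters of the 9 genes in which both an E-box (CACGTG) and the insulin response element known from FoxO-regulated promoters (TGTTTTG) were found. Both come from RefSeq on GRCm38.p6, are written along the gene's own strand, and have the motif letters in capitals.
Irs1: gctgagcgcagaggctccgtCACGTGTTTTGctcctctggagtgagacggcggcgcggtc
Irs2: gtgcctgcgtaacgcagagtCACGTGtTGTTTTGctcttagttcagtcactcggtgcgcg
The Irs1 stretch is chr1:82291515-82291574 on the minus strand and runs from base -135 to base -76 before the transcription start. The Irs2 stretch is chr8:11008934-11008993 on the minus strand and runs from base -64 to base -5. These bases are counted from the RefSeq starts. Both starts lie upstream of those in GENCODE, used for the gene coordinates below (82291416 for Irs1 and 11008458 for Irs2). Both stretches hold the 10 bases GTCACGTGTT around the E-box. In Irs1 the motifs overlap by the letters TG, and in Irs2 a single base lies between them. Promoter windows of 250 bases before the start were available for 8 of the 9 genes, without Insr, and were searched on both strands. Of all 32851 windows, 6.02% held CACGTG, 5.56% held TGTTTTG and 3.17% held TGTTTAC, the core of a FoxO site. Among the 8 windows, CACGTG stood in those of Igf2r, Irs1 and Irs2, TGTTTTG in those of Irs1 and Irs2, and TGTTTAC in 0. A match of letters is a description of these windows and shows no binding.

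The 9 genes covered a wide range of levels. Per kilobase of exon, Igfbp7 stood highest by far, with 1382 ± 320 RPKM (SD, n = 30), where RPKM is CPM, the reads of a gene scaled to a common library total, per kilobase of exon. Igf1r (24.2 ± 5.06 RPKM), Igfbp3 (22.9 ± 8.23 RPKM) and Foxo1 (22.5 ± 2.73 RPKM) followed and differed from each other by less than their spread. Where exons overlap a gene on the opposite strand, reads are left out of these counts, which ignore strand. Of the reads in the stranded columns summed, this left out 16.1% for Foxo1 and 8.68% for Irs2. The order of the genes was not computed on those columns. Insr stood at 5.90 ± 1.84 RPKM. Foxo3 (1.19 ± 0.349 RPKM), Irs2 (0.818 ± 0.434 RPKM) and Igf2r (0.624 ± 0.233 RPKM) came next. Among these 3, each differed from the next by less than the larger SD of the pair. Irs1 was the lowest with 0.0455 ± 0.0491 RPKM, and 3 of 30 libraries had no read in it when strand was ignored. With the stranded columns summed, 1 of 30 had none, and 73.0% of the reads which that sum gives to Irs1 are missing from the level given here. The libraries keep no strand, so reads over such overlaps cannot be divided between the overlapping genes. Within each pair of related genes 1 member prevailed, since Igf1r was above Insr, Foxo1 above Foxo3, Irs2 above Irs1 and Igfbp7 above Igfbp3 in the mean over all libraries.

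**Figure D1:**
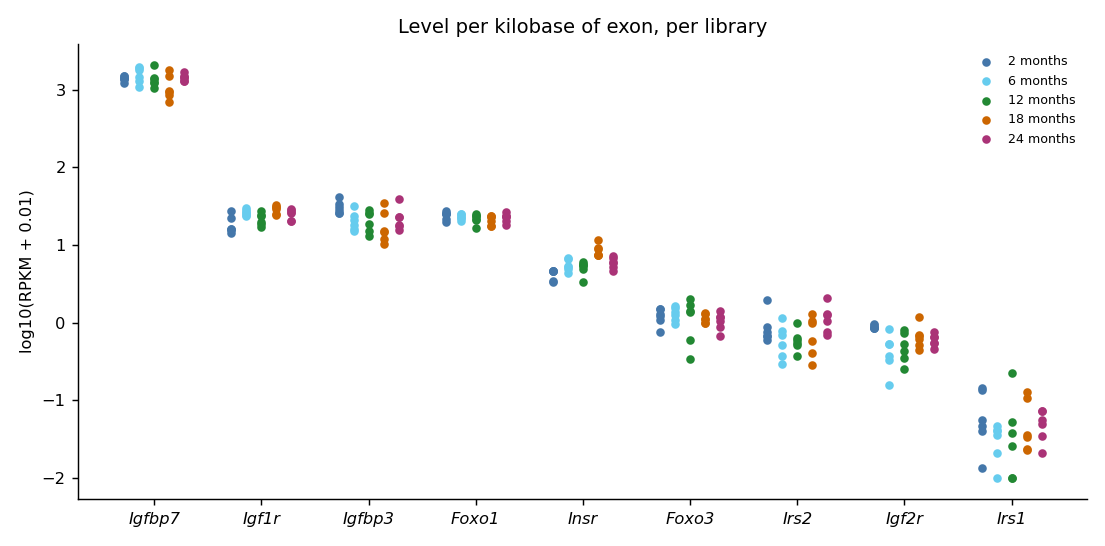
Level per kilobase of exon for each of the 9 genes, as log10(RPKM + 0.01) on the vertical axis, ordered from the highest to the lowest mean; each point is a library, coloured by age. Igfbp7 stands alone at the top (mean 1382 RPKM) and Irs1 at the bottom (mean 0.0455 RPKM).

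Against 2 months, Insr was higher at 18 and 24 months, Igf1r was higher at 6 and 18 months, Igf2r was lower at 6 months, Igfbp3 was lower at 18 months, and the substrates and FoxO factors passed no test against age. Of the 9 genes, 1 rose (Insr) and 0 fell along a straight line on age, against 5.72% of all 16844 genes tested that rose and 5.22% that fell (edgeR's quasi-likelihood test with sex as a covariate, Benjamini-Hochberg adjusted p under 0.05). At an unadjusted p under 0.05, 2 of the 9 rose (Insr and Igf1r) and 0 fell, and DESeq2 and limma-voom also called 0 of the 9 lower. Differences below are log2 fold changes ± SE, and slopes are scaled to 22 months, the span of the ages. The 4 comparisons with 2 months share the 2-month libraries, so their values are not independent. Statements below on libraries that lie above or below the 2-month values describe single genes. How many of all genes show the like was not counted.

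Insr encodes the insulin receptor and lies on chromosome 8 at 3122061 to 3279617 (GRCm38, minus strand). Its levels are given as the lowest, median and highest of 6 libraries. The 2-month libraries had 46.2, 62.7 and 64.3 CPM, the 6-month libraries 59.5, 72.4 and 92.6 CPM and the 12-month libraries 46.3, 74.6 and 82.2 CPM. The 18-month libraries had 101, 112 and 162 CPM, and the 24-month libraries 62.8, 82.3 and 99.4 CPM. The 18-month libraries stood above every 2-month library without overlap, the other ages overlapped with 2 months, and 21 of the 24 older libraries exceeded the highest 2-month value. The mean was 2.07-fold that of 2 months at 18 months and 1.42-fold at 24 months. The fitted differences from 2 months were 1.03 ± 0.13 at 18 months (adjusted p = 1.84e-06) and 0.49 ± 0.13 at 24 months (adjusted p = 0.0142), and both passed. Those at 6 months (0.39 ± 0.13, adjusted p = 0.0549) and at 12 months (0.28 ± 0.13, adjusted p = 0.271) did not. The slope was 0.66 ± 0.17 (adjusted p = 0.0124), but the 5 ages departed from a straight line (adjusted p = 0.000944), with the peak at 18 months. Without the 18-month libraries the slope was 0.36 (adjusted p = 0.145), and without the 2-month libraries it was 0.39 (adjusted p = 0.311), and neither passed.

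Igf1r encodes the IGF-1 receptor and lies on chromosome 7 at 67952827 to 68233668 (plus strand). Its lowest, median and highest levels at the youngest age were 243, 269 and 458 CPM. The 6-month libraries had 401, 436 and 495 CPM and the 12-month libraries 290, 367 and 459 CPM. The 18-month libraries had 410, 505 and 553 CPM and the 24-month libraries 339, 440 and 481 CPM. Of the 24 older libraries 23 lay above the 2-month mean of 312 ± 85.2 CPM (SD, n = 6), but every age overlapped with 2 months, where 2 male libraries had 373 and 458 CPM. Igf1r was higher at 6 months (0.50 ± 0.14, adjusted p = 0.0220) and at 18 months (0.64 ± 0.14, adjusted p = 0.00153). It did not pass at 12 months (0.24 ± 0.14, adjusted p = 0.385), at 24 months (0.43 ± 0.14, adjusted p = 0.0512) or as a slope (0.36 ± 0.15, adjusted p = 0.125), and it departed from a straight line (adjusted p = 0.0280). Without either of 2 female libraries of 2 months (replicates 4 and 5) the 6-month difference no longer passed, with adjusted p up to 0.0650.

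Of the 16844 genes, 4.07% were called higher and 4.69% lower at 6 months, where 1 of the 9 genes was higher (Igf1r) and 1 lower (Igf2r). At 12 months 0 of the 9 were called in either direction by edgeR or DESeq2, against 1.38% of all genes higher and 1.56% lower, and at an unadjusted p under 0.05 there were 1 higher (Insr) and 2 lower (Igf2r and Igfbp3). At 18 months 2 of 9 were higher (Insr and Igf1r) and 1 lower (Igfbp3), against 10.1% and 8.7% of all genes. At 24 months 1 of 9 was higher (Insr) against 4.86% of all genes. There 0 of 9 were lower by edgeR, by DESeq2 or at an unadjusted p under 0.05, against 3.48% of all genes. Departure from a straight line was called for 2 of 9 (Insr and Igf1r), against 17.7% of all genes.

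**Figure D2:**
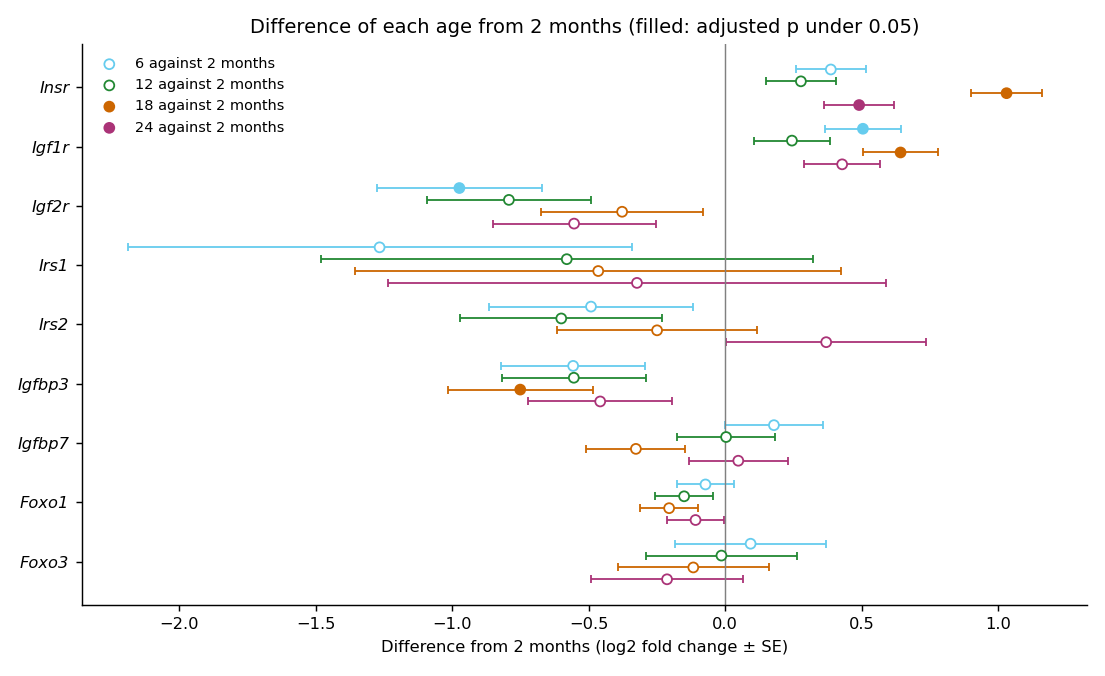
Difference of each older age from 2 months for the 9 genes, as log2 fold change ± SE on the horizontal axis, coloured by age; filled points have an edgeR adjusted p under 0.05. Insr and Igf1r lie to the right at all 4 ages and Igf2r and Igfbp3 to the left, while Irs1 has the widest errors.

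Igf2r encodes the cation-independent mannose 6-phosphate receptor, which takes up and degrades Igf2 and sorts lysosomal enzymes, and it lies on chromosome 17 at 12682406 to 12769664 (minus strand). At 2 months its 6 libraries lay close together, with a lowest, median and highest level of 7.86, 8.03 and 8.81 CPM. The 6-month libraries had 1.38, 4.13 and 7.68 CPM and the 12-month libraries 2.25, 4.41 and 7.42 CPM. The 18-month libraries had 4.05, 5.91 and 10.8 CPM and the 24-month libraries 4.22, 5.55 and 7.01 CPM. Of the 24 older libraries 23 lay below the lowest 2-month value, and the exception was a male library of 18 months. The difference passed at 6 months (-0.97 ± 0.30, adjusted p = 0.0408). It did not at 12 months (-0.79 ± 0.30, adjusted p = 0.163), 18 months (-0.38 ± 0.30, adjusted p = 0.405) or 24 months (-0.55 ± 0.30, adjusted p = 0.291), nor did the slope (-0.22 ± 0.29, adjusted p = 0.669). Without the 2-month libraries the slope was 0.59 (adjusted p = 0.384). The 6-month call was lost without any 1 of the 6 libraries of 2 months or of 4 libraries of 6 months (replicates 2, 3, 4 and 6), with adjusted p up to 0.0992. Over the 30 libraries the log2 level of Igf2r followed the summed fibroblast and meningeal markers (Pearson's r = 0.390, and 0.594 with age means removed). Other lists had a like r, namely choroid plexus (0.392 and 0.343), smooth muscle (0.390 and 0.267) and T and B lymphocyte markers (0.350 and 0.224). The part of these cells in the Igf2r level was not tested.

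The level of Insr moved with the make-up of the libraries. The share of reads that fell outside annotated genes was, in order of age, 5.06 ± 0.971%, 5.69 ± 1.26%, 6.03 ± 0.676%, 10.4 ± 2.13% and 7.19 ± 1.76% (SD, n = 6), so it too was highest at 18 months. Over the 30 libraries, Insr on a log2 scale followed this share with Pearson's r = 0.852 and Spearman's rho = 0.815. Both have a permutation p of 1e-05, the smallest that 100000 permutations can give, and adjusted p of 9e-05 and 0.00018 over 18 relations. The permutations, here and below, moved libraries freely across ages, so their p-values also take in differences between the ages. No p-value was computed for the values with age means removed. Without the 2 libraries farthest from the median share r was 0.776, and with age means removed it was 0.617. Within single ages (n = 6 each) it was -0.175 at 2 months and between 0.655 and 0.846 at the others. For Igf1r the values were r = 0.582 (permutation p = 0.00089, adjusted p = 0.00401) and rho = 0.574 (permutation p = 0.00108, adjusted p = 0.00648), r = 0.620 without the 2 farthest libraries, and r = 0.348 with age means removed. With this share as a covariate, the Insr slope was 0.14 (adjusted p = 0.775), the 18-month difference was 0.55 for Insr (adjusted p = 0.154) and 0.30 for Igf1r (adjusted p = 0.663), and none of these passed. Insr and Igf1r also ran against the summed choroid plexus markers (r = -0.647 and -0.601, and -0.457 and -0.324 with age means removed), whose part was not tested. Both genes count among the long genes, so part of their relation to the share of long genes is built in. With age means removed that relation was r = 0.273 for Insr and 0.390 for Igf1r. With the share of long genes as a covariate, the Insr slope was 0.50 (adjusted p = 0.0564). The share of reads outside genes was higher at the older ages, so age and library make-up cannot be told apart here.

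**Figure D3:**
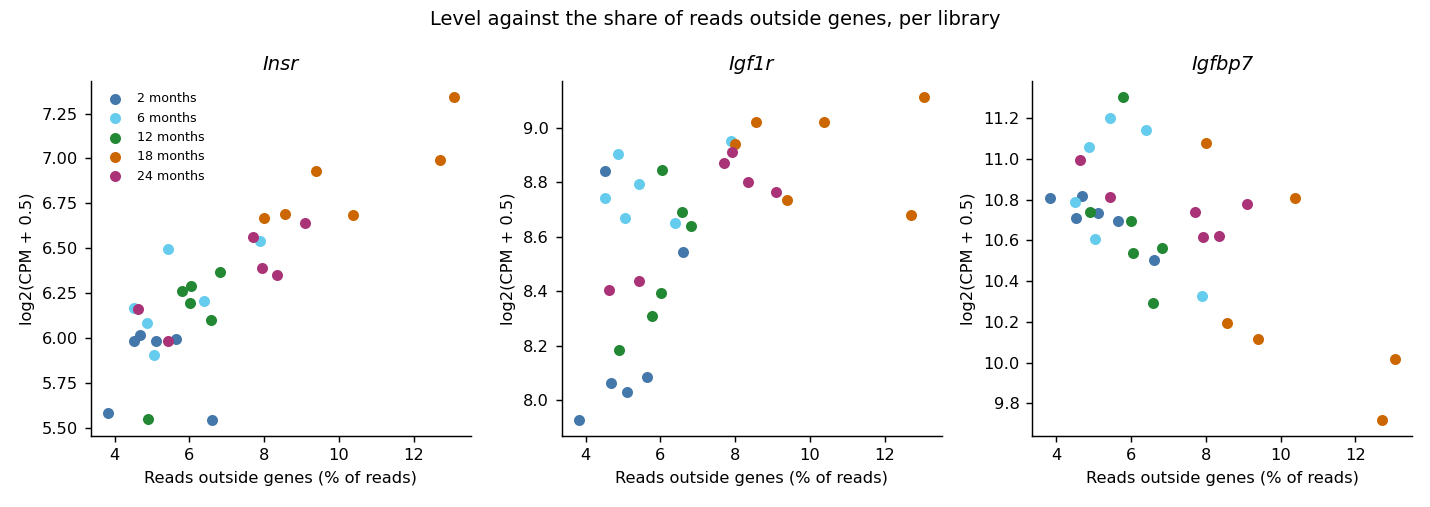
Level of Insr, Igf1r and Igfbp7 (vertical axes, log2(CPM + 0.5)) against the percent of reads outside annotated genes (horizontal axes); each point is a library, coloured by age. Insr rises with this percentage (r = 0.852), Igfbp7 falls (r = -0.644), and the 18-month libraries hold the highest percentages.

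The ligands were low or uneven. Ins1 had no read in any of the 30 libraries, where 3 reads would have given 0.0594 to 0.124 CPM, and Ins2 had at most 1.89 CPM. Igf1, the main ligand of Igf1r, had 6.55 ± 3.57 CPM at 2 months and 2.32 ± 1.82 CPM at 24 months (SD, n = 6), with a slope of -1.36 ± 0.55 that did not pass (adjusted p = 0.114). Igf2 stood apart at 6 months. In order of age its level was 25.7 ± 8.43, 128 ± 98.8, 17.9 ± 10.1, 43.7 ± 26.9 and 65.9 ± 17.6 CPM (SD, n = 6). The 6-month males had 33.7, 43.9 and 76.4 CPM and the 6-month females 124, 214 and 279 CPM, so the females were the highest of all 30 libraries. Igf2 was higher at 6 months by 2.28 ± 0.46 (adjusted p = 0.00294), and this passed without each library in turn and under all 4 alternatives run. In the same libraries the summed level of 10 fibroblast and meningeal markers ranged from 720 to 4524 CPM at 6 months, against 901 to 2461 CPM at 2 months, and its part in the Igf2 difference was not tested. Insrr, the insulin receptor-related receptor, had at most 0.467 CPM and no read in 25 of 30 libraries.

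Irs1 and Irs2 dock PI3-kinase to the activated receptors. Irs1 (chromosome 1, 82233101 to 82291416, minus strand) had 405 reads in all 30 libraries together and between 0 and 2.00 CPM per library. Its means lay between 0.209 CPM at 6 months and 0.578 CPM at 2 months, and the groups overlapped at every age. The slope of 0.01 ± 0.62 (adjusted p = 0.996) changed sign between alternatives, and no age passed the test against 2 months. Of its exon bases, 2822 (30.9%) are also annotated on the opposite strand as Gm9747, and reads there are left out by a counter that ignores strand. Summing the stranded columns gave 1499 reads over Irs1, of which 1094 (73.0%) were added by this, and a slope of 0.16 (adjusted p = 0.877). As the libraries keep no strand, the added reads cannot be divided between Irs1 and Gm9747. Irs2 (chromosome 8, 10984681 to 11008458, minus strand) ranged from 1.75 to 12.9 CPM. Its means in order of age were 5.83 ± 3.30, 3.94 ± 1.96, 3.82 ± 1.34, 4.84 ± 2.59 and 7.44 ± 3.11 CPM (SD, n = 6). All ages overlapped with 2 months and no difference passed, with a slope of 0.43 ± 0.32 (adjusted p = 0.410).

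Irs2 varied from library to library together with markers of cells other than endothelium. Over the 30 libraries its log2 level correlated with the summed pericyte markers (r = 0.684, and 0.651 with age means removed), the border macrophage markers (r = 0.631 and 0.698) and the smooth muscle markers (r = 0.630 and 0.570). The genes most like Irs2 were Tbx2 (r = 0.787), Fermt3 (r = 0.777), which encodes the integrin regulator of blood cells kindlin-3, and Slco3a1 (r = 0.761). The pericyte list summed to between 384 and 1235 CPM over all libraries, and 3 of its 10 genes rose with age (Kcnj8, Abcc9 and Rgs5). In these bulk libraries fewer cells of a type and less RNA per cell cannot be told apart, and the part of these cells in the Irs2 level was not tested.

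Igfbp3, the main IGF carrier of blood plasma, lies on chromosome 11 at 7206086 to 7213923 (minus strand). The lowest, median and highest of its 2-month libraries were 79.8, 92.9 and 131 CPM. The 6-month libraries had 46.8, 61.2 and 100.5 CPM and the 12-month libraries 40.4, 68.2 and 87.6 CPM. The 18-month libraries had 31.8, 46.6 and 109 CPM and the 24-month libraries 48.7, 63.7 and 124 CPM. Of the 24 older libraries 18 lay below the lowest 2-month value, and at each age at least 1 library overlapped with 2 months. The difference passed at 18 months (-0.75 ± 0.27, adjusted p = 0.0460), where the 3 females (31.8 to 46.3 CPM) lay below the 3 males (47.0 to 109 CPM). It did not pass at 6 months (-0.56 ± 0.26, adjusted p = 0.185), 12 months (-0.55 ± 0.26, adjusted p = 0.285) or 24 months (-0.46 ± 0.26, adjusted p = 0.332), nor as a slope (-0.41 ± 0.23, adjusted p = 0.270). The 18-month call was lost in 15 of the 30 fits that left out 1 library, 4 of them libraries of 2 months (replicates 2, 4, 5 and 6), 4 of 18 months (replicates 3 to 6) and 7 of other ages (replicates 1 and 4 of 6 months, 1 and 6 of 12 months, and 2, 4 and 5 of 24 months), with adjusted p up to 0.131. It was also lost with no filter on low counts (-0.76, adjusted p = 0.103) and with the share of reads outside genes as a covariate (-0.44, adjusted p = 0.794).

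The genes most like Igfbp3 over the 30 libraries were Plvap (r = 0.799), which forms the diaphragms of fenestrated endothelium, Cd24a (r = 0.767) and Plpp1 (r = 0.767). Igfbp3 also followed the summed choroid plexus markers (r = 0.586, and 0.440 with age means removed) and the fibroblast and meningeal markers (r = 0.571 and 0.562). Of the 10 choroid plexus markers 6 fell with age, and their sum in order of age was 5897 ± 2513, 2995 ± 2603, 4099 ± 3137, 1778 ± 699 and 2605 ± 1290 CPM (SD, n = 6). Their part in the Igfbp3 level was not tested.

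Igfbp7, a secreted protein of vessel walls that binds IGFs weakly, lies on chromosome 5 at 77349240 to 77408041 (minus strand). In order of age it had 1680 ± 129, 1893 ± 425, 1690 ± 439, 1352 ± 509 and 1741 ± 173 CPM (SD, n = 6). No age passed the test against 2 months, except that 18 months did once replicate 2 of that age was left out (-0.50, adjusted p = 0.0415), and the slope was -0.15 ± 0.17 (adjusted p = 0.603). At 18 months the 3 females (843 to 1108 CPM) lay below the 3 males (1171 to 2158 CPM), and at 6 months the 3 females (2128 to 2356 CPM) lay above the 3 males (1284 to 1768 CPM). Its exons are the shortest of the 9 genes at 1209 bases, and its level fell with the share of counts that went to genes with long exons (r = -0.836, permutation p = 1e-05, adjusted p = 9e-05; rho = -0.726, permutation p = 2e-05, adjusted p = 0.00018; n = 30). That r was -0.800 without the 2 farthest libraries and -0.825 with age means removed. Igfbp7 lies outside the genes with long exons (over 4110 bases), so part of this fall is built in. Other genes with short exons were not compared. The females had a higher share than the males at 18 months (56.6 to 58.9% against 52.8 to 55.1%). At 6 months they had a lower share (42.3 to 45.4% against 49.6 to 53.8%). The part of this share in the Igfbp7 differences between the sexes was not tested. The genes most like Igfbp7 were Eif4a3 (r = 0.913), Cox5a (r = 0.899) and Ly6c1 (r = 0.898). Igfbp7 also followed the summed erythroid (r = 0.614, and 0.475 with age means removed), choroid plexus (0.514 and 0.550) and fibroblast and meningeal markers (0.514 and 0.442). With the neuron markers r was 0.328, and 0.809 with age means removed. The part of these cells in the Igfbp7 level was not tested. The 3′ end of Igfbp7 overlaps that of Polr2b on the opposite strand, and 6.64% of the reads in the summed stranded columns are left out for Igfbp7 when strand is ignored.

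Among the other binding proteins, Igfbp2 fell with age. In order of age it had 316 ± 110, 181 ± 103, 180 ± 109, 97.0 ± 34.2 and 129 ± 16.8 CPM (SD, n = 6). All 18-month and 24-month libraries lay below the 2-month mean, and the slope was -1.31 ± 0.31 (adjusted p = 0.00631). Its slope passed without each library in turn, but not with the share of reads outside genes as a covariate (-0.88, adjusted p = 0.272), nor without the 2-month or the 18-month libraries. The summed choroid plexus markers were also lowest at 18 months, and their part in the Igfbp2 level was not tested. Igfbp4 (37.3 ± 18.7 CPM over all 30 libraries), Igfbp5 (15.4 ± 8.82 CPM) and Igfbp6 (18.2 ± 9.97 CPM) did not pass, with slopes of 0.51, 0.65 and -0.03. Igfbp1, Igfals and Igfbpl1 were below the levels needed for a test, at no more than 0.713, 1.64 and 0.637 CPM in any library.

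No age difference of Foxo1 or Foxo3 passed a test. Foxo1, the FoxO factor best known for holding endothelial cells in quiescence, lies on chromosome 3 at 52268336 to 52353221 (plus strand). It varied least of the 9 genes, from 143 to 238 CPM over all libraries, with means in order of age of 210 ± 24.3, 199.7 ± 15.5, 189 ± 25.4, 182 ± 25.6 and 195 ± 24.1 CPM (SD, n = 6). Its slope was -0.13 ± 0.09 (adjusted p = 0.383). Foxo3 lies on chromosome 10 at 42181841 to 42276755 (minus strand) and had, in order of age, 9.25 ± 2.13, 9.88 ± 2.03, 9.33 ± 4.91, 8.55 ± 1.10 and 8.04 ± 2.04 CPM (SD, n = 6), with a slope of -0.26 ± 0.24 (adjusted p = 0.514). Its widest spread was at 12 months, from 2.48 to 15.3 CPM, where 2 female libraries were lower than any other of the 30. The genes most like Foxo1 were Usp43 (r = 0.779), Ddx54 (r = 0.756) and Xrcc1 (r = 0.734), and those most like Foxo3 were Pola2 (r = 0.783), Arv1 (r = 0.668) and Hirip3 (r = 0.658).

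The receptors had other companions. The genes most like Insr were Jmjd1c, Lrba and Dlc1, each with r = 0.87 over the 30 libraries and between 0.540 and 0.653 with age means removed. Those most like Igf1r were Kpna4 (r = 0.877), Rc3h2 (r = 0.866) and Mink1 (r = 0.857), with 0.764 to 0.847 after age means were removed. Igf2r was most like Lamb1 (r = 0.688), Matn2 (r = 0.665) and Fgl2 (r = 0.640), and Irs1 most like Raver1 (r = 0.693), R3hdm2 (r = 0.645) and Zdhhc8 (r = 0.643). These values rank 10067 genes on the same libraries and are descriptions. Insr and Igf1r correlated with each other at r = 0.668 over all libraries and 0.341 with age means removed.

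Between the sexes, 0 of the 9 genes passed by edgeR or DESeq2, against 0.0416% of all genes called higher and 0.0594% called lower in males. At an unadjusted p under 0.05 there were 0 higher and 1 lower, which was Insr (-0.23 ± 0.08, adjusted p = 0.484). At 18 months the 3 males had 101, 102 and 103 CPM of Insr and the 3 females 121, 127 and 162 CPM. At 24 months the males had 62.8, 71.1 and 81.2 CPM and the females 83.3, 93.9 and 99.4 CPM. The sexes did not overlap at either of these ages, and they overlapped at 2 months (males 46.2 to 62.7 CPM, females 47.5 to 64.3 CPM), 6 months (59.5 to 92.6 and 67.2 to 89.6 CPM) and 12 months (46.3 to 76.3 and 72.8 to 82.2 CPM). How many of all genes part the sexes in this way was not counted. At 18 months the share of reads outside genes was 7.99 to 10.4% in males and 9.38 to 13.1% in females. At 24 months this share was 4.62 to 8.34% in males and 7.70 to 9.09% in females. Its part in the Insr difference between the sexes was not tested. The age slope differed between the sexes in 0 of the 9 genes and in 0% of all genes in each direction by edgeR, and in 4 genes, none of the 9, by DESeq2. At an unadjusted p under 0.05, 1 of the 9 (Igfbp7) had the higher slope in males. Fitted separately on 15 libraries each, the Insr slope was 0.44 in males (adjusted p = 0.456) and 0.88 in females (adjusted p = 0.0456), and the test of the difference gave an adjusted p of 0.887. For Igfbp3 the slopes were 0.02 in males and -0.87 in females, with an adjusted p of 0.876 for the difference. In the same order they were 0.12 and 0.60 for Igf1r and 0.19 and -0.48 for Igfbp7, each also with 0.876 for the difference. The others had 0.04 and -0.49 (Igf2r), -0.42 and 0.32 (Irs1), 0.46 and 0.40 (Irs2), -0.11 and -0.15 (Foxo1), and -0.08 and -0.43 (Foxo3).

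Downstream of the receptors, age slopes went in both directions. In 11 lists of pathway genes, 149 of 157 genes could be tested, of which 11 rose and 17 fell, with a median slope of 0.011 against 0.029 over all genes, of which 5.72% rose and 5.22% fell. The lists were chosen with earlier results of these data known, so their counts are descriptions and cannot show an excess over all genes. In the PI3-kinase and Akt list 3 of 18 rose, among them Pik3r1, the p85 regulatory subunit (0.56 ± 0.14, adjusted p = 0.0111), and the lipid kinase Pik3c2a (0.83 ± 0.27, adjusted p = 0.0411). The mTORC2 subunit Mapkap1 fell (-0.25 ± 0.08, adjusted p = 0.0352). Of 15 substrates and adaptors tested, the adaptor Dok4 fell (-0.91 ± 0.13), with mean levels of 175 and 87.8 CPM in the youngest and oldest libraries, and the Ras exchange factor Sos1 rose (0.34 ± 0.11, adjusted p = 0.0399). Of 9 genes that process ligands and binding proteins, 1 fell, Htra1, a secreted protease known to cleave binding proteins (-1.10 ± 0.15), with 232 CPM in the youngest and 113 CPM in the oldest libraries. The calls for Dok4 and Htra1 held under all 11 alternatives and without each library in turn.

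In the mTORC1 list 1 of 16 fell, the inhibitor subunit Akt1s1 (-0.42 ± 0.12, adjusted p = 0.0238), and 0 rose. Among 20 phosphatases and other inhibitors, Socs3, a feedback inhibitor of cytokine and insulin receptors, rose (0.83 ± 0.23, adjusted p = 0.0155) and the phosphatase subunit Ppp2ca fell (-0.31 ± 0.07, adjusted p = 0.00676). Of 18 FoxO factors and regulators, the coactivator Ep300 (0.70 ± 0.13) and the deubiquitinase Usp7 (0.70 ± 0.17) rose. Of the genes of 14-3-3 proteins, which hold phosphorylated FoxO outside the nucleus, Ywhab (-0.33 ± 0.08), Ywhah (-0.45 ± 0.12) and Ywhae (-0.22 ± 0.07) fell. Ywhag (0.04, adjusted p = 0.883) and Ywhaz (-0.07, adjusted p = 0.714) did not pass. Of 36 FoxO-regulated genes tested, 4 rose and 7 fell. Angpt2, the Tek ligand (0.73 ± 0.14), the mitophagy receptor Bnip3 (0.65 ± 0.14), Ccnd1 (0.65 ± 0.18) and Insr rose, while the antioxidant enzyme Cat (-0.51 ± 0.09), Gadd45a (-0.89 ± 0.18), the p53-inducible death gene Bbc3 (-0.64 ± 0.14) and the cell cycle inhibitor Cdkn2b (-0.61 ± 0.13) fell with 3 others. In the list of caveolae and receptor transcytosis genes 1 of 10 fell, the IgG receptor Fcgrt (-0.45 ± 0.10, adjusted p = 0.0023).

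**Figure D4:**
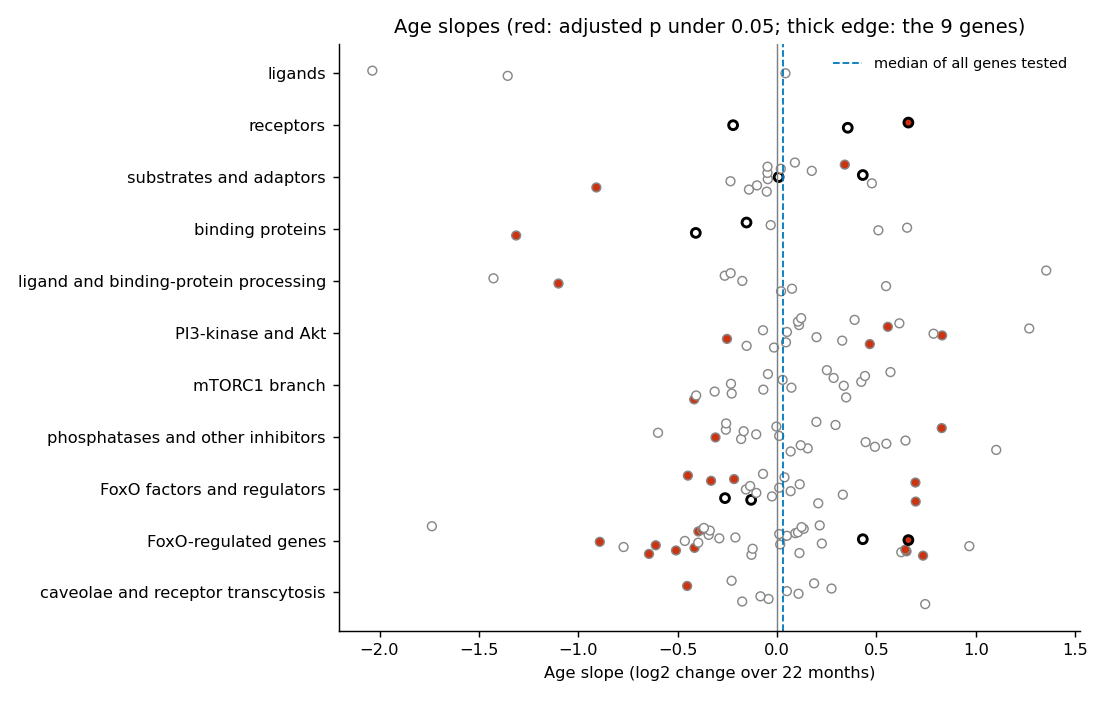
Age slopes (log2 change over 22 months, horizontal axis) of the tested genes in 11 pathway lists; each point is a gene, shown in every list that holds it and red where the edgeR adjusted p was under 0.05, with a thick edge for the 9 genes, and the dashed line is the median of all genes tested (0.029). Red points lie on both sides of 0, for 11 genes to the right and 17 to the left.

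With the share of reads outside genes as a covariate, 6 of these 28 pathway calls remained, 3 that rose (Angpt2, Bnip3 and Ccnd1) and 3 that fell (Bbc3, Dok4 and Htra1). Without the 18-month libraries 11 of the 28 remained.

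Counts in genes ranged from 24140980 to 50464366 per library. The cells carried endothelial markers, with a summed level of 12 genes between 19290 and 26625 CPM, although the junction protein Cldn5 fell with age (-0.59 ± 0.14, adjusted p = 0.00463) and the transcription factor Erg rose (1.14 ± 0.27, adjusted p = 0.00582). Of the markers of other cells, 1 astrocyte gene (Fgfr3) rose and 3 fell, 1 smooth muscle gene (Des), 1 neuronal gene (Stmn2) and 1 neutrophil gene (Retnlg) rose, and in the fibroblast, oligodendrocyte, microglia, border macrophage, erythroid and lymphocyte lists 0 genes passed. No marker was at 0 in all 30 libraries.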

How the data were processed

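RNA from brain endothelial cells was amplified with a kit that keeps no strand and adds no molecular identifiers, per the labels' protocols. PCR copies are therefore counted. For each library the authors deposited a table of raw read counts per gene. Tools and builds in the submitters' processing notes are STAR 2.5.2b, HTSeq, FastQC 0.11.4, MultiQC, GRCm38 and mm10. The deposited column that ignores strand was used. Library sizes exclude the lines without a gene, which held 3.82 to 13.1% of reads outside genes, 2.51 to 6.26% unmapped, 8.64 to 13.3% at several places and 3.61 to 4.21% over several genes.

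Symbols, coordinates and exon lengths came from a gene name table (48349 of 48795 identifiers matched without version) and GENCODE M21 (48435 matched). Genes were kept by filterByExpr (minimum count 10, total 15), which left 16844 with at least 99.9% of each library's counts. Counts were scaled by TMM and fitted in edgeR 4.0.16 (R 4.3.3) with the robust quasi-likelihood test over all 30 libraries: a slope on age in months with sex as a covariate, ages against 2 months, 3 further polynomial terms, sex, and sex by age. P-values were adjusted over all genes tested (Benjamini-Hochberg, 0.05). SEs derive from F. CPM uses TMM-scaled sizes, and RPKM divides CPM by kilobases of merged exons. Long genes have over 4110 exon bases. Alternatives used DESeq2 1.42.0, limma 3.58.1 (voom), other scalings, no filter, covariates, and fewer libraries. The age slope fit was tested on simulated counts.

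The members and lists were chosen with earlier results of these data known. Named are the 9 genes, the ligands, receptors and binding proteins, up to 4 called genes per direction of the other lists, and for each of the 9 the 3 genes with the highest Pearson correlation of log2(CPM + 0.5) over 30 libraries among protein-coding genes of mean CPM 5 or more. One called gene of these lists is not reported here. Marker genes named as called, and the uncalled Ywhag and Ywhaz, fall outside this rule and were chosen after their values were seen. Floors and spreads cover counting and library error only.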

Additional observations from a re-analysis of the deposited data

Results flagged for a closer look

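In 80 groups of 6 libraries of 1 age, 9 had a highest value that stood far from the other libraries of its age (Dixon's test at its 95% critical value). For independent groups of normally spread values, chance flags about 1 in 20. These groups share libraries and mix the sexes, so the 9 of 80 cannot be read against that rate. All 9 flagged values were in male libraries, and some libraries held more than 1 of them. Of the 45 groups of the 9 genes, 5 were flagged. Igf2r was 10.8 CPM in replicate 3 of 18 months, where the others had 4.05 to 6.32 CPM. Irs1 was 2.00 CPM in replicate 2 of 12 months, where the others had 0 to 0.389 CPM. Irs2 was 12.5 CPM in replicate 1 of 2 months (others 3.77 to 5.46 CPM). Igfbp3 was 124 CPM in replicate 3 of 24 months (others 48.7 to 72.7 CPM). Igfbp7 was 2526 CPM in replicate 1 of 12 months (others 1255 to 1707 CPM).

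Among the other pathway genes, replicate 1 of 18 months stood out for Igfbp4 (109 CPM, others 14.6 to 34.6 CPM) and Igfbp6 (17.8 CPM, others 7.21 to 11.2 CPM). Igfbp5 was 39.4 CPM in replicate 1 of 2 months (lowest of the others 4.09 CPM), and Ins2 was 1.35 CPM in replicate 1 of 12 months (others 0 to 0.396 CPM).

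The stranded columns, used above only in an alternative fit, give Irs1 1094 reads that the column without strand leaves out. These reads cannot be divided between Irs1 and Gm9747 on the opposite strand.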

How the results depend on the processing

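The number of the 9 genes that rose along age was 1. It was 0 with the share of reads outside genes or the share of counts in long genes as a covariate, 0 without the 2-month or the 18-month libraries, 0 at an adjusted p under 0.01, and 2 without the 24-month libraries (Insr at 1.23, Igf1r at 0.64). It stayed at 1 without each library in turn, where the Insr slope ran from 0.59 to 0.74. At 6 months 2 genes differed, against 1 with no filter on low counts, 0 at the stricter threshold and 0 to 3 without 1 library. At 18 months 3 differed, against 2 with no filter (without Igfbp3), 0 with the outside-gene covariate and 2 to 4 without 1 library. At 24 months 1 differed, against 0 with that covariate or the stricter threshold, 2 by DESeq2 and 1 to 2 without 1 library. Departure from a straight line was called for 2, against 0 with that covariate and 1 at the stricter threshold. Counts of 0 for falling slopes, 12 months, sex and sex by age did not move under the alternatives run.

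Uncalled slopes changed sign in some fits. Igf2r was 0.59 and Igfbp3 0.0065 without the 2-month libraries, and Irs2 was -0.29 without the 24-month libraries. Igfbp7 was 0.23 with the outside-gene covariate and 0.098 with the long-gene covariate. Irs1 was -0.0047 with DESeq2 size factors, -0.00365 by DESeq2, -0.18 and -0.25 with these covariates, -0.027 without 18 months, -0.41 without 24 months, and -0.27 to 0.23 without 1 library. With the outside-gene covariate Foxo3 was 0.057 at 12 and 0.25 at 18 months, and Igfbp7 was 0.35 at 18 months. Without 1 library, differences from 2 months ran from -0.13 to 0.0029 (Foxo1) and -0.029 to 0.22 (Foxo3) at 6 months, -0.13 to 0.081 (Igfbp7) and -0.19 to 0.21 (Foxo3) at 12 months, -0.57 to 0.072 (Irs2) at 18 months and -0.0011 to 0.088 (Igfbp7) at 24 months. Calls were gained for Insr at 6 months in 8 fits (without replicate 2 or 3 of 2 months, 1 or 4 of 6 months, 1, 3 or 6 of 12 months, or 5 of 18 months; lowest adjusted p = 0.0277) and for Igf1r at 24 months in 9 (without 1 or 3 of 2 months, 4 or 5 of 6 months, 1, 3 or 6 of 12 months, or 1 or 2 of 24 months; lowest adjusted p = 0.00335). For these changes the cause was not tested.

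No paired analysis was possible because the labels carry no numbers that tie libraries of different ages. Irs1 rests on a median of 9 reads per library in the column that ignores strand, and of 47 with the stranded columns summed.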
